A study of Mus musculus with 2 samples.

Results

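The replication-dependent histone genes are the family that supplies the core and linker histones of newly copied chromatin. They were chosen by symbol, as the protein-coding genes whose names begin with Hist1h, Hist2h or Hist3h, and 63 of the 21474 protein-coding genes with a row in the deposited gene tables met that rule. By class, 6 encode the linker histone H1, 18 encode H2A, 15 encode H2B, 12 encode H3 and 12 encode H4. Another 3 symbols of the rule (Hist1h2bh, Hist1h2bm and Hist2h2bb) had no row of their identifier and were not analysed here.

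RNA titled as polyadenylated messenger RNA was sequenced with paired ends in mouse leukemia stem cells, in 1 group of 2 biological replicates. Per the labels, the cells were infected with Friend virus, an erythroleukemia retrovirus, were positive for CD34, CD133, Kit and Sca1, and came from pooled adult males and females aged 10 to 12 weeks. The labels add that a strain must carry the sensitive Fv2 allele to yield such cells, and both libraries share that description and a single donor record, with different biosamples. With 1 group there was nothing to compare between conditions, so levels and the difference between the libraries are described without a p-value, and the spread between the libraries may be partly technical.

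Levels are the deposited TPM, a length-normalised share of all transcripts in a library. Replicate 2 held 22541765 expected counts over all rows and replicate 1 held 23575315. Transcripts of the markers named in the labels were scarce. Ly6a, which encodes Sca1, had 2.15 TPM in replicate 2 and 1.45 in replicate 1, and Kit had 1.06 in replicate 2 and 1.81 in replicate 1. Cd34 had 0.27 TPM in replicate 2 and 1.80 in replicate 1, and Prom1, which encodes CD133, was at 0 in replicate 2 and 0.06 in replicate 1. Genes of mature erythroid, macrophage and B lineage cells were abundant, among them the globin gene Hba-a1 with 133373 TPM in replicate 2 and 51056 in replicate 1. The erythroid genes Klf1, Gata1 and Epor differed in the other direction. They had 1053, 75.0 and 288 TPM in replicate 2, and 1605, 308 and 655 in replicate 1. The macrophage gene C1qc had 639 TPM in replicate 2 and 368 in replicate 1. C1qa and C1qb differed less, at 281 and 293 in replicate 2 and 238 and 212 in replicate 1. Cd79a, a B lineage gene, had 99.4 in replicate 2 and 436 in replicate 1. The B lineage genes Cd79b and Pax5 differed less, at 51.1 and 114 in replicate 2 and 87.8 and 131 in replicate 1. In such bulk RNA, fewer cells of a type and less RNA per cell cannot be told apart, and the part of these cells in the histone values was not tested.

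Replication-dependent histone genes are transcribed mainly in S phase, when DNA is copied, and most lie in clusters of intronless genes. Their messenger RNA usually ends just after a short stem-loop that is bound by the stem-loop binding protein, and it carries no poly(A) tail, unlike nearly all other messenger RNA. A library prepared by selection for poly(A) is therefore known to hold only a part of these transcripts, such as polyadenylated forms that are made in differentiating cells.

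The sequence that marks the family is shown first, because the most abundant members differ from the rest beside it. A search for the stem-loop, written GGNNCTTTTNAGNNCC with complementary arms, was made on the given strand of each transcript whose GENCODE M21 model had the same length as in the deposited tables. Of 48 such member transcripts, from 46 genes, 26 held it. Over all 39589 protein-coding transcripts of matching length, with the members included, 35 did so, or 0.0884%. In the lines that follow, the stem-loop is in capitals and the 14 bases before it are in lower case, for the leading H2A genes, for other H2A genes, and for H1, H2B, H3 and H4 genes, which lie on chromosomes 13, 3 and 11.
Hist1h2ao: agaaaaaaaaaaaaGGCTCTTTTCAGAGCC
Hist1h2ap: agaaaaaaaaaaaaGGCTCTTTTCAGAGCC
Hist1h2ab: ttaaccaaaacaaaGGCTCTTTTCAGAGCC
Hist2h2aa2: cgagctcctaaaaaGGCTCTTTTCAGAGCC
Hist2h2ac: cacgaatccaaaaaGGCTCTTTTTAGAGCC
Hist1h1c: ctaacaatccaaaaGGCTCTTTTCAGAGCC
Hist3h2ba: gcccccaacccaaaGGCTCTTTTCAGAGCC
Hist1h3e: acgtaaaccaaaacGGCTCTTTTAAGAGCC
Hist1h4f: gcttctttctcaaaGGCCCTTTTCAGGGCC
Hist1h4b: taactgttacaaaaGGTCCTTTTCAGGACC

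The stem-loop varied little, and it varied by class. The form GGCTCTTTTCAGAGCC was shared by 1 H1, 7 H2A, 4 H2B and 4 H3 transcripts. All 7 H4 transcripts had another stem, which was GGCCC paired with GGGCC in 5 and GGTCC paired with GGACC in 2. The bases before it differed more. Hist1h2ao and Hist1h2ap had an unbroken run of 12 adenines up to the stem-loop and 13 adenines among the 14 bases, whereas the other 24 transcripts had 3 to 9, with a median of 6 and no run longer than 5 at that place. A run of at least 12 adenines stood in these 2 of the 48 member transcripts and in 4.98% of all protein-coding transcripts of matching length. In the other member transcripts, the longest run at any place was 7. By the most adenines in any 20 bases, the pair did not stand alone. Both had 16, and so did Hist2h4, with 5.34 TPM in replicate 2 and 5.75 in replicate 1.

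Hist1h2ao and Hist1h2ap, a pair of H2A genes in the Hist1 cluster of chromosome 13, held almost all of the family's transcripts in both libraries. Hist1h2ao (ENSMUSG00000094248.1, chr13:21810465-21810944 on mm10, plus strand) had 22918 TPM in replicate 2 and 30563 in replicate 1, a mean of 26741 ± 5405 (SD, n = 2). Hist1h2ap (ENSMUSG00000094777.2, chr13:21833026-21833507, minus strand) had 5813 TPM in replicate 2 and 20089 in replicate 1, a mean of 12951 ± 10094 (SD, n = 2). By mean TPM they ranked 3 and 7 among the 21474 protein-coding genes. Together they made up 2.87% of all TPM of replicate 2 and 5.07% of replicate 1, and of the family's own TPM 91.1% in replicate 2 and 93.4% in replicate 1.

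The split between the pair rests on few bases. Of the 25-base words of Hist1h2ao, 93.9% also stood in Hist1h2ap, and 5.92% stood in no other gene. The deposited posterior SD of the count was 406 for each of them in replicate 2 and 1120 in replicate 1, against expected counts of 154485 in replicate 2 and 209838 in replicate 1 for Hist1h2ao. Their summed level was 28731 TPM in replicate 2 and 50651 in replicate 1.

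The upstream sequence of the pair was identical over at least 200 bases, which are printed here because both genes stand on them. RefSeq promoter windows (GRCm38.p6, from 250 bases before to 50 after each annotated start) share the stretch at chr13:21810217-21810416 on the plus strand for Hist1h2ao and at chr13:21833526-21833725 on the minus strand for Hist1h2ap. The windows are offset because the annotated starts differ. The stretch reaches the edge of a window at each end, so the identity may extend further than shown. Capitals mark CCAAT, read on either strand, and TATAA.
Hist1h2ao and Hist1h2ap: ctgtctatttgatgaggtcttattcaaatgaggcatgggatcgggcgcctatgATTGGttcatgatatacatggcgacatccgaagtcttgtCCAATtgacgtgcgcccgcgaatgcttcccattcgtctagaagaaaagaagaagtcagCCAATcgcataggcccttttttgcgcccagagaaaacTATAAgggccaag

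The stretch held 3 CCAAT and 1 TATAA. These letters were common across the family rather than particular to the pair. Of 57 members matched to a RefSeq window, 49 held CCAAT on either strand, or 86.0%, against 37.4% of 32544 windows of all genes. TATAA on either strand stood in 46 of the 57, or 80.7%, against 24.8% of all windows. CCAAT stood in every matched H1, H2A, H2B and H3 window, and in 3 of 11 H4 windows. The octamer ATTTGCAT, known from H2B promoters as a site of the factor encoded by Pou2f1, stood in 11 members, of which 7 were H2A and 4 were H2B genes, and in 1.75% of all windows. Windows of neighbouring genes on opposite strands can overlap, as for Hist1h2ae and Hist1h2bg, which both held the octamer. A single match can then be counted for both genes, so the tallies of members are not tallies of separate sites. A match describes letters in the window and not the binding of a factor.

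**Figure D1:**
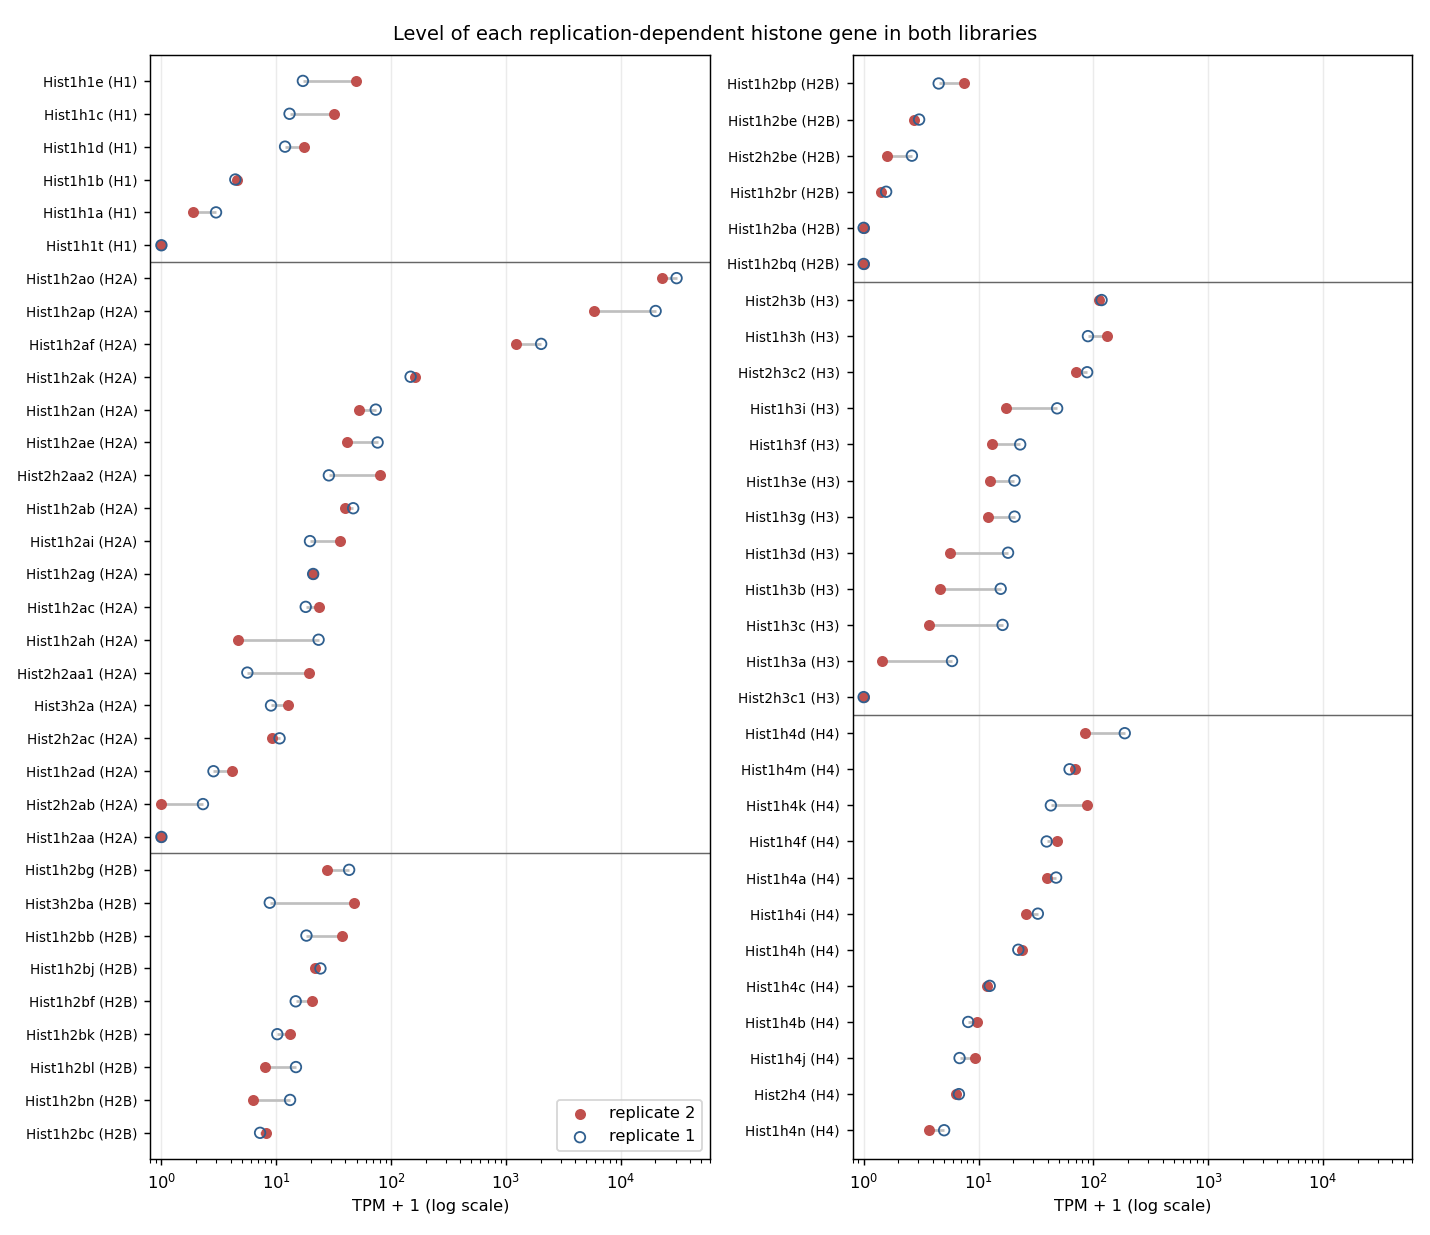
Level of all 63 members as TPM + 1 on a log axis, grouped by class and ordered by mean, with replicate 2 filled and replicate 1 open. Hist1h2ao and Hist1h2ap lie between 5813 and 30563 TPM, Hist1h2af at 1228 to 2023 TPM, and every other member at or under 187 TPM.

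At least 1 TPM was reached in both libraries by 53 of the 63 members, or 84.1%, whereas 41.6% of all protein-coding genes reached it. The median of the 63 members' means was 15.3 TPM, or 13.6 TPM without Hist1h2ao and Hist1h2ap. The 61 members other than Hist1h2ao and Hist1h2ap summed to 2790 TPM in replicate 2 and 3607 in replicate 1, which was 0.279% of the total in replicate 2 and 0.361% in replicate 1. All members together held 3.15% in replicate 2 and 5.43% in replicate 1, a mean of 4.29% ± 1.61 (SD, n = 2). By expected counts, which are not divided by length, they held 0.942% in replicate 2 and 1.57% in replicate 1.

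H2A proteins form a dimer with H2B in the nucleosome, and H2A genes held most of the family's TPM, 96.6% in replicate 2 and 98.0% in replicate 1. Hist1h2af (ENSMUSG00000061991.2, chr13:23533906-23534304) had 1228 TPM in replicate 2 and 2023 in replicate 1, ranking 62 among protein-coding genes. Its mean followed those of Hist1h2ao and Hist1h2ap, and was 10.6 times that of the next gene. Hist1h2ak, that next gene, had 161 TPM in replicate 2 and 147 in replicate 1. The libraries differed less for Hist1h2ak than for any of the first 3 on the TPM scale. With the TMM scaling described below, the log2 ratio of replicate 2 over replicate 1 was 0.59 for Hist1h2ak. That was farther from 0 than 0.05 for Hist1h2ao and -0.26 for Hist1h2af, but not than -1.32 for Hist1h2ap. Hist1h2af shared 87.7% of its 25-base words with Hist1h2ad, so its reads can be split with that gene, which had 3.14 TPM in replicate 2 and 1.84 in replicate 1. The deposited posterior SD of the Hist1h2af count was 23.09 against 6303 expected counts in replicate 2. In replicate 1 it was 32.49 against 10653. The other 14 H2A genes reached at most 78.7 TPM, the value of Hist2h2aa2 in replicate 2.

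Hist2h2aa1 and Hist2h2aa2 are neighbouring H2A copies of the Hist2 cluster on chromosome 3. Hist2h2aa2 had 78.7 TPM in replicate 2 and 27.7 in replicate 1, and Hist2h2aa1 had 18.2 in replicate 2 and 4.60 in replicate 1. Both were higher in replicate 2. All words of Hist2h2aa2, and 89.9% of those of Hist2h2aa1, also stood in Gm20634, a noncoding gene (chr3:96245554-96248509) with 0.91 TPM in replicate 2 and 0.05 in replicate 1. Its annotated span overlaps that of Hist2h2aa1 and not that of Hist2h2aa2. The split among these genes is therefore uncertain.

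H2B genes, the partners of H2A in the dimer, summed to 190 TPM in replicate 2 and 153 in replicate 1, a share of 0.602% of the family in replicate 2 and of 0.283% in replicate 1. The leading H2B gene by mean was Hist1h2bg, with 26.8 TPM in replicate 2 and 42.1 in replicate 1. Hist3h2ba, from the small Hist3 cluster on chromosome 11, had 46.2 TPM in replicate 2 and 7.78 in replicate 1. Hist1h2bb had 36.1 TPM in replicate 2 and 17.3 in replicate 1, and Hist1h2bj had 20.7 in replicate 2 and 23.2 in replicate 1. No H2B gene came near the leading H2A genes. Of 15 H2B genes, 11 reached 1 TPM in both libraries.

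H3 and H4 form the tetramer at the centre of the nucleosome, and their classes had similar sums. H3 genes summed to 372 TPM in replicate 2 and 453 in replicate 1, and H4 genes to 407 in replicate 2 and 461 in replicate 1. The first 3 H3 genes were Hist2h3b, with 110 TPM in replicate 2 and 117 in replicate 1, Hist1h3h, with 130 in replicate 2 and 88.7 in replicate 1, and Hist2h3c2, with 69.1 in replicate 2 and 87.3 in replicate 1. The ranges of Hist2h3b and Hist1h3h overlapped, so these data do not order them. Hist2h3c2 had a lower value than both in each library. In replicate 1 its deposited interval, 79.4 to 88.8 TPM, lay within that of Hist1h3h, 72.1 to 99.0 TPM, so these 2 are not ordered there. Hist1h3i, the fourth, had 16.3 TPM in replicate 2 and 47.4 in replicate 1. Hist1h3h and Hist1h3i were each other's closest copies, with 87.1% of words shared. Their sum differed less between libraries than either gene, at 146 TPM in replicate 2 and 136 in replicate 1.

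By the deposited TPM, all 12 H4 genes reached 1 TPM in both libraries, the only class without a gene under that level in either. The lowest by mean was Hist1h4n, with 2.71 TPM in replicate 2 and 4.02 in replicate 1. It shared 86.9% of its words with Hist1h4m. Its deposited interval began at 0.384 TPM in replicate 2 and 0.434 in replicate 1, so it may lie under 1 TPM. Hist1h4d led them, with 83.6 TPM in replicate 2 and 187 in replicate 1. Hist1h4k had 86.2 TPM in replicate 2 and 41.7 in replicate 1, so the order of the pair was opposite in the libraries. Hist1h4m had 67.9 TPM in replicate 2 and 61.1 in replicate 1, and Hist1h4f had 46.9 in replicate 2 and 38.2 in replicate 1.

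Linker histone H1 genes, whose products bind the DNA between nucleosomes, were the class with the lowest sum, 100.5 TPM in replicate 2 and 44.4 in replicate 1. Hist1h1e had 48.8 TPM in replicate 2 and 16.1 in replicate 1. Hist1h1c had 31.0 TPM in replicate 2 and 12.1 in replicate 1, and Hist1h1d had 16.3 in replicate 2 and 10.9 in replicate 1. These 3 were higher in replicate 2 and kept one order in both libraries. Hist1h1b had 3.59 TPM in replicate 2 and 3.40 in replicate 1, while Hist1h1a had 0.90 in replicate 2 and 1.99 in replicate 1. The annotated spans of Hist1h1e (chr13:23620629-23622558) and the H2B gene Hist1h2be (chr13:23583670-23621124) overlap on the minus strand.

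**Figure D2:**
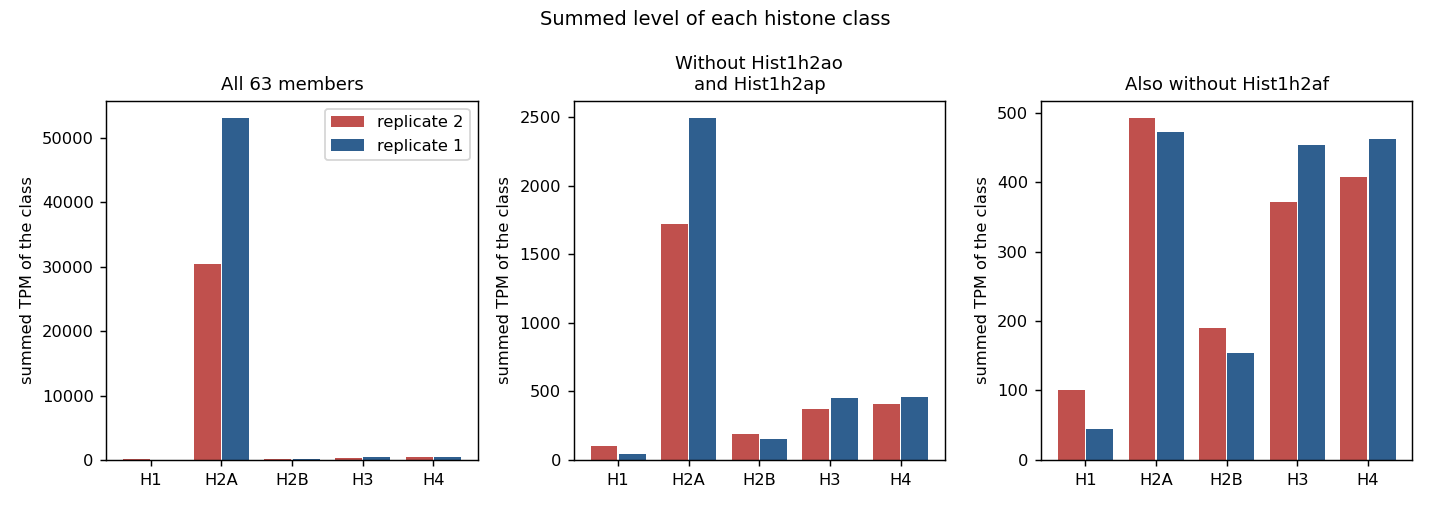
Summed TPM of each histone class in replicate 2 (left bars) and replicate 1 (right bars), for all 63 members, without Hist1h2ao and Hist1h2ap, and also without Hist1h2af, each panel on its own axis from 0. Without the 3 genes, H2A sums to 492 TPM in replicate 2 and 471 in replicate 1, near the sums of H3 and H4 and above H2B and H1.

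The excess of H2A rested on 3 genes. Without Hist1h2ao, Hist1h2ap and Hist1h2af, which were picked after their values were seen, H2A genes held 31.5% of the remaining family TPM in replicate 2 and 29.8% in replicate 1. H3 then held 23.8% in replicate 2 and 28.6% in replicate 1, and H4 held 26.1% in replicate 2 and 29.1% in replicate 1. H2B followed with 12.2% in replicate 2 and 9.69% in replicate 1, and H1 with 6.44% in replicate 2 and 2.80% in replicate 1. On the TPM scale, the 60 remaining members had nearly the same sum in the libraries, 1562 TPM in replicate 2 and 1584 in replicate 1. That scale is not the one used below for the difference between libraries. With the TMM scaling described there, the 54 of them tested had a median log2 ratio of 0.38, against -0.04 for all genes tested.

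By cluster, the 52 Hist1 genes of chromosome 13 held 98.9% of member TPM in replicate 2, against 99.5% in replicate 1. The 9 Hist2 genes of chromosome 3 summed to 290 TPM in replicate 2 and 255 in replicate 1, mainly from Hist2h3b and Hist2h3c2. The 2 Hist3 genes summed to 57.8 TPM in replicate 2 and 15.8 in replicate 1. Hist3h2a had 11.6 TPM in replicate 2 and 8.00 in replicate 1, so Hist3h2ba supplied most of that gap.

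Counts of 0 in both libraries were found for 5 members. They included Hist1h1t, Hist1h2aa and Hist1h2ba, the members known from testis for H1, H2A and H2B. A count of 0 allows up to 0.257 TPM of Hist1h1t in replicate 2 and 0.255 in replicate 1, taking 3 counts as the limit. For Hist1h2aa the limit was 0.606 TPM in replicate 2 and 0.590 in replicate 1, with counting error alone. Hist1h2ba shared 46.7% of its words with Hist1h2bq, and the deposited posterior interval, which takes in how reads are split, reached up to 1.07 TPM for it in replicate 2 and 2.68 in replicate 1. The other zero members were Hist1h2bq, with 98.5% of words shared with the H2B gene Hist1h2br, and Hist2h3c1, which lies inside the span of Gm20634 and shares all its words with it. Their zeros therefore depend on how reads were assigned. The upper end of the deposited interval was 0.352 TPM in replicate 2 and 0.372 in replicate 1 for Hist1h2bq, and 0.144 TPM in replicate 2 and 0.174 in replicate 1 for Hist2h3c1. Hist2h2ab was at 0 in replicate 2, which allows up to 0.498 TPM, and at 1.30 TPM in replicate 1.

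Many H2A and H2B genes stand head to head and share the DNA between their starts. The family held 12 such pairs, with 176 to 306 bases between the annotated starts and a median of 259.5. The H2A gene was higher than its H2B neighbour in both libraries in 8 pairs and the H2B gene in 2. Hist1h2bq, the neighbour of Hist1h2ao, was at 0 in both libraries, and Hist1h2br, the neighbour of Hist1h2ap, had 0.42 TPM in replicate 2 and 0.57 in replicate 1. The very high levels therefore stood on one side only of these shared upstream stretches. Hist1h2ak averaged 17.7 times its neighbour Hist1h2bn, and Hist1h2an 12.5 times Hist1h2bp. The reverse was seen for Hist1h2ad, with 3.14 TPM in replicate 2 and 1.84 in replicate 1, beside Hist1h2bf, with 19.4 in replicate 2 and 13.8 in replicate 1. Hist1h2ag and Hist1h2bj differed little, at 19.96 and 20.7 TPM in replicate 2 and 19.95 and 23.2 in replicate 1.

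**Figure D3:**
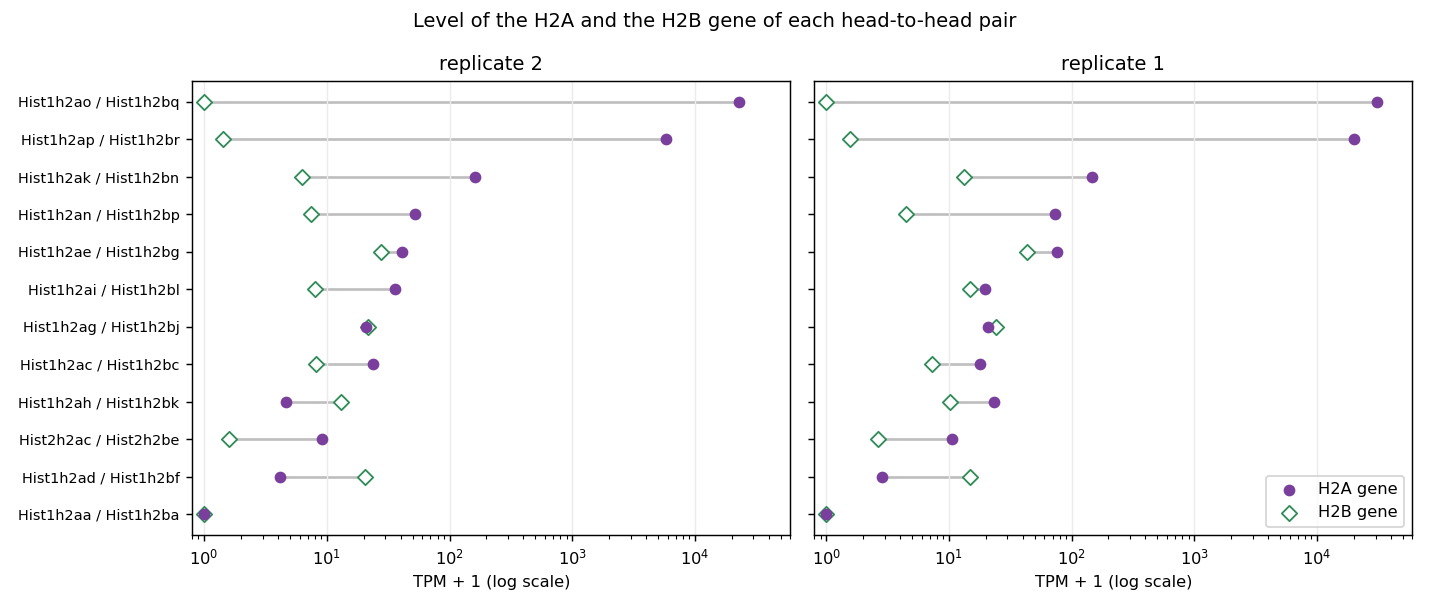
TPM + 1 on a log axis of the H2A gene (filled circle) and the H2B gene (open diamond) of each of the 12 head-to-head pairs, in replicate 2 (left panel) and replicate 1 (right panel). The pairs of Hist1h2ao and Hist1h2ap span almost the whole axis, while Hist1h2ag and Hist1h2bj nearly coincide.

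Across the 26 transcripts with a stem-loop, the run of adenines before it and the level stood apart together in Hist1h2ao and Hist1h2ap. These 2 were singled out by their level and are near copies, with 93.9% of the words of Hist1h2ao also in Hist1h2ap. They are therefore not separate cases. The other 24 had at most 9 adenines in the 14 bases and at most 87.3 TPM in either library. A model that ends more than 100 bases past the stem-loop was annotated for 9 of the 26, with 15.6 TPM as the median of their means. Those of the 15 others apart from the leading pair had a median of 11.4 TPM, and those of the 22 transcripts without a stem-loop in their model had 9.57 TPM. Such models often hold the coding sequence alone, as for Hist1h2af and Hist1h2ak. Over all 48 transcripts, the highest number of adenines in any 20 bases had a Spearman correlation of -0.38 with mean TPM, and of -0.57 without the leading pair. These transcripts differ in length, from 312 to 2620 bases, and in base composition. The correlation was not adjusted for either, so it is a description only. Whether the adenine run had a part in the level of Hist1h2ao and Hist1h2ap was not tested.

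**Figure D4:**
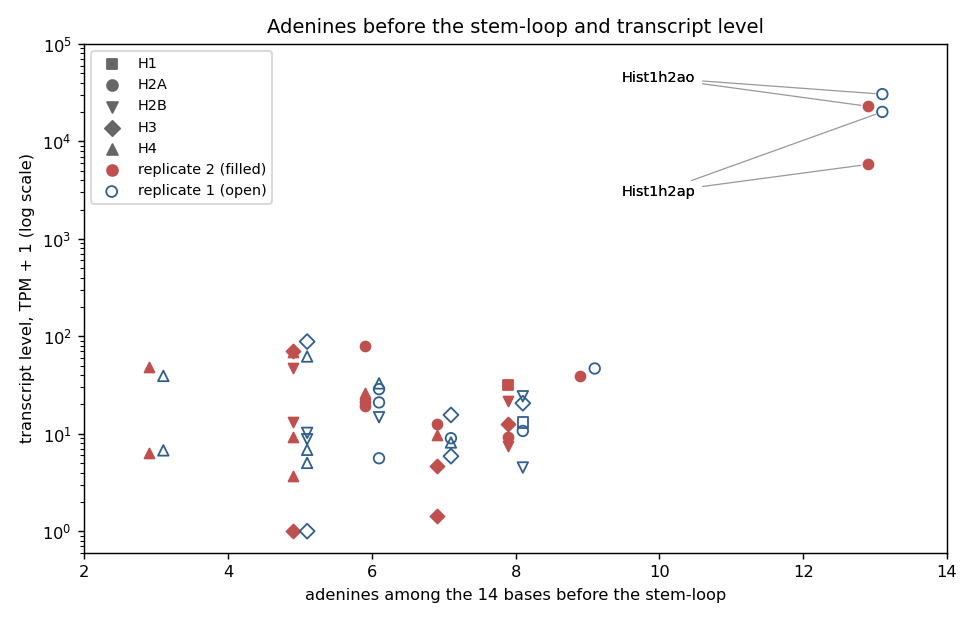
Adenines among the 14 bases before the stem-loop (x axis) and transcript level as TPM + 1 (log y axis) for 26 member transcripts, with replicate 2 filled and replicate 1 open and a marker shape per class. Hist1h2ao and Hist1h2ap, near copies singled out by their level, stand alone at 13 adenines, and the other transcripts show 3 to 9.

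Over the 63 members, TPM had a Spearman correlation of 0.874 between the libraries. On the scale of log2(TPM + 1) the Pearson correlation was 0.944, and 0.908 without Hist1h2ao and Hist1h2ap, against 0.957 over all protein-coding genes. These are correlations across genes within a pair of libraries, and genes are not independent replicates.

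For the difference between libraries, expected counts were scaled by the TMM method, which assumes that most genes are unchanged, and given as a log2 ratio of replicate 2 over replicate 1 with an exact binomial interval for counting error. A gene counts as apart when the whole interval lies beyond 2-fold, among genes with 20 or more counts. Of 57 members tested, 7 were apart with the higher level in replicate 2, or 12.3%, against 8.84% of the 11708 protein-coding genes tested. The higher level was in replicate 1 for 4 members, or 7.02%, against 14.5% of all genes tested. The median log2 ratio was 0.30 over the members and -0.04 over all genes tested. Scaling by the total count or by TPM moved the median of all genes to -0.47 and -0.45, and the members' median turned to -0.13 and -0.16. With total-count scaling the members' median lay 0.34 above that of all genes, as with TMM. That scaling shifts all genes by nearly the same amount, so the gap could hardly change. With TPM ratios, which also use a length per gene and library, the gap was 0.28.

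GC content moved with this difference. The 2342 genes highest in GC, 1 of 5 equal parts, had a median log2 ratio of 0.50 and the 2342 lowest in GC had -0.55, and 34 of the 57 members lay in the part highest in GC, where their own median was 0.34. The median GC content was 58.8% for members and 50.5% for all genes tested. GC content was taken from the longest M21 transcript of each gene. For some members that is not the model quantified, as for Hist1h1d, with 7425 bases in M21 against 744 in the deposited tables. In that part, 17.4% of genes were apart with the higher level in replicate 2 and 4.48% with the higher level in replicate 1, and of the 34 members there 5 were apart with the higher level in replicate 2 and 3 with the higher level in replicate 1. The part of GC content in the members' ratios was not tested.

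**Figure D5:**
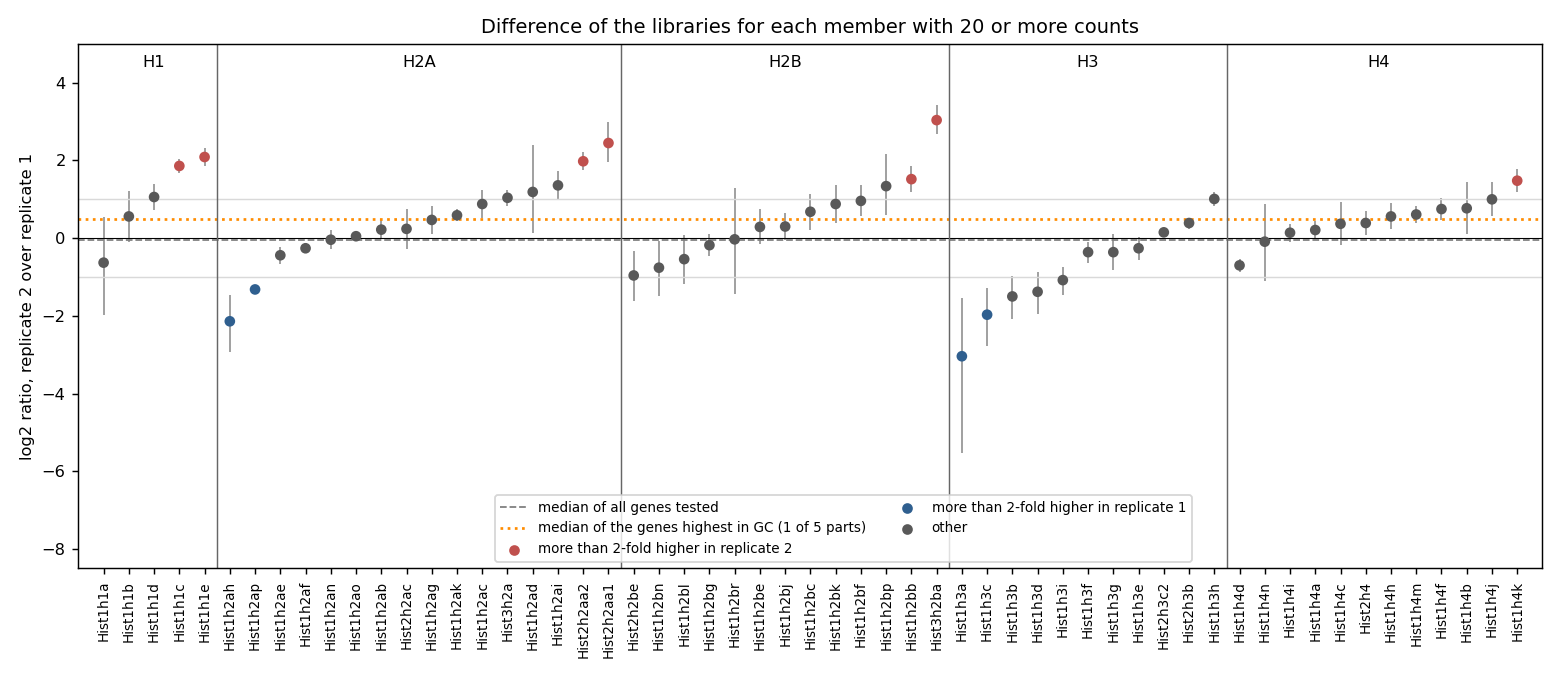
Log2 ratio of replicate 2 over replicate 1 for the 57 members with 20 or more counts, by class, with exact binomial 95% intervals, and lines for the median of all genes tested (-0.04) and of the 2342 genes highest in GC (0.50). Of 11 H3 genes 8 lie below the median of all genes, and of 12 H4 genes 10 lie above it.

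The members apart with the higher level in replicate 2 were led by Hist3h2ba, with a log2 ratio of 3.04 (95% interval 2.69 to 3.42). Hist2h2aa1 followed with 2.45 (1.97 to 3.0), Hist1h1e with 2.09 (1.85 to 2.33) and Hist2h2aa2 with 1.98 (1.76 to 2.21), and the other 3 were Hist1h1c, Hist1h2bb and Hist1h4k. Those with the higher level in replicate 1 were Hist1h3a at -3.04 (-5.54 to -1.55), Hist1h2ah at -2.14 (-2.94 to -1.46), Hist1h3c at -1.97 (-2.78 to -1.28) and Hist1h2ap at -1.32 (-1.33 to -1.30). Under all 4 scalings, 5 of the 7 and all 4 of these were apart in the same direction. Hist1h4k and Hist1h2bb were not under total-count and TPM scaling. The counting interval leaves out how reads were split among copies, which was widest for Hist1h2ah. Its expected count was 18.9 with a posterior SD of 13.76 in replicate 2, and 120 with 19.17 in replicate 1, and 88.2% of its words also stood in Hist1h2ad. The deposited TPM interval of Hist1h2ah was 0.693 to 10.8 in replicate 2 and 14.6 to 29.9 in replicate 1, and its extremes gave a log2 ratio from -4.97 to 0.03 after TMM scaling, so the gene was not apart by that measure. Taking the extremes of the deposited intervals for every gene, a comparison chosen after seeing the data, 5 members were apart with the higher level in replicate 2, against 6.31% of all genes tested, and 3 with the higher level in replicate 1, against 9.21%. Hist2h2aa1 and Hist1h4k were then just short of 2-fold, with low ends of 1.00 and 0.99.

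By class, the H1 genes had the highest median log2 ratio, 1.06 over 5 genes tested, and the H3 genes the lowest, -0.36 over 11. H4 had 0.48, H2A 0.36 and H2B 0.30, against -0.04 for all genes tested. With TMM scaling, 8 of 11 H3 genes lay below the median of all genes and 10 of 12 H4 genes lay above it. TPM ratios gave the same numbers. DESeq2 and total-count scaling shift all genes by nearly the same amount, so they could hardly change a place relative to that median. Relative to 0, the medians of H2A and H2B turned to -0.08 and -0.13 with total-count scaling and to -0.11 and -0.16 with TPM ratios. Hist1h2ao itself was at 0.05, and the sum of Hist1h2ao and Hist1h2ap at -0.35 (-0.36 to -0.34), so the pair was not apart although Hist1h2ap alone was. In the same way, Hist1h3h at 1.01 and Hist1h3i at -1.08 gave 0.56 (0.42 to 0.71) when summed.

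The genes that make, process and degrade histone messages were mostly expressed, 15 of 18 at 1 TPM or more in both libraries. Slbp, the stem-loop binding protein, had 196 TPM in replicate 2 and 127 in replicate 1, and Lsm11, a subunit of the U7 particle that cuts the message after the stem-loop, had 116 in replicate 2 and 67.0 in replicate 1. Of the 17 with enough counts, these 2 were apart with the higher level in replicate 2, or 11.8%, against 8.84% of all genes tested. Cyclin E1 (Ccne1), which with Cdk2 activates histone gene transcription through Npat, had 172 TPM in replicate 2 and 254 in replicate 1, and Npat had 0.42 in replicate 2 and 1.33 in replicate 1. Srrt, a partner of the cap-binding complex, had 195 TPM in replicate 2 and 223 in replicate 1, Sympk, a scaffold of the cleavage complex, had 214 in replicate 2 and 178 in replicate 1, and Upf1, which acts in decay of histone messages, had 169 in replicate 2 and 146 in replicate 1. Another 2, or 11.8% against 14.5% of all genes tested, were apart with the higher level in replicate 1. They were Casp8ap2, at 0.31 TPM in replicate 2 and 1.5 in replicate 1, and Ccne2, at 5.28 in replicate 2 and 13.6 in replicate 1; Zfp473, with 0 in replicate 2 and 0.19 in replicate 1, had too few counts to be tested.

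Genes of S phase and of histone assembly were present in both libraries, with median ratios below that of all genes tested. All 8 S phase genes had 1 TPM or more in each library. The most abundant were Mcm2, a subunit of the replicative helicase, with 249 TPM in replicate 2 and 341 in replicate 1, and Ccna2, a cyclin gene, with 258 in replicate 2 and 314 in replicate 1. Rrm2, a subunit of ribonucleotide reductase, had 68.5 TPM in replicate 2 and 236 in replicate 1. Their median log2 ratio was -0.74, and 4 of 8 were apart with the higher level in replicate 1, against 14.5% of all genes tested. Among 12 histone chaperone genes the median was -0.93, with 5 of 12 apart in that direction against the same 14.5%, and 11 reached 1 TPM in both libraries. Nasp, a carrier of H3 and H4, had 1.42 TPM in replicate 2 and 40.1 in replicate 1, and Asf1b, which hands over H3 and H4, had 16.1 in replicate 2 and 190 in replicate 1. Chaf1b, a subunit of the assembly factor CAF1, had 53.1 TPM in replicate 2 and 83.95 in replicate 1. Nap1l1, a chaperone of H2A and H2B, was the most abundant by mean and differed less, at 90.7 TPM in replicate 2 and 143 in replicate 1.

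Replacement histone genes, most of which are also expressed outside S phase with ordinary poly(A) tails, were all detected, with 10 of 10 at 1 TPM or more in both libraries. H2afz, the gene of H2A.Z, had 990 TPM in replicate 2 and 2815 in replicate 1, and H2afx, the gene of H2A.X, whose message is known in both stem-loop and polyadenylated forms, had 1419 in replicate 2 and 796 in replicate 1. H3f3b, a gene of H3.3, had 384 TPM in replicate 2 and 590 in replicate 1, and Cenpa, the centromeric H3, had 376 in replicate 2 and 295 in replicate 1. The median of their means was 264 TPM, above every member of the replication-dependent family except Hist1h2ao, Hist1h2ap and Hist1h2af. Of the 10, 6 were apart with the higher level in replicate 2, against 8.84% of all genes tested. H3f3a, at 57.8 TPM in replicate 2 and 496 in replicate 1, was the 1 gene apart in the other direction, against 14.5%.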

How the data were processed

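The authors made a gene and a transcript table for each library on mm10 with GENCODE M4 models, per the file headers and readme; no aligner or quantifier is given in the sources used here. They deposited expected counts, which are estimated fragments and need not be whole, and TPM over all rows of a table. The authors also deposited a posterior SD for each count and interval bounds, a signal of how certain a split among copies is, and the deposited percent is the share of a transcript in its gene.

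Members, gene lists and the naming rule were chosen with earlier results of these data known. Rows were matched to GENCODE M21 by identifier without version: 42462 of the 43346 Ensembl rows of a table matched. Named were every H1 member, the 4 most abundant of each other class, the 2 most abundant of Hist2 and Hist3, up to 4 members apart in each direction, members at 0, testis members, the most abundant genes of each list, Slbp, Npat, the sort markers, and genes given a role; others (head-to-head pairs, closest copies) were chosen after their values were seen.

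Expected counts were rounded and scaled by TMM in edgeR 4.0.16 (R 4.3.3), with a prior count of 0.5; DESeq2 1.42.0 gave alternative size factors. Intervals (95%) and the limit of 3 counts for a 0 cover counting error only. Words of 25 bases were compared among M21 transcripts. Python 3.11.15, numpy 2.4.6, pandas 2.3.3, scipy 1.17.1 and matplotlib 3.10.9 were used.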

Additional observations from a re-analysis of the deposited data

Results flagged for a closer look

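Histone genes outside the symbol rule also gave signal, in rows that entered no summary above and with no control samples to set them against. Hist4h4, a protein-coding H4 gene outside the Hist1 to Hist3 clusters, had 18.04 TPM in replicate 2 and 18.12 in replicate 1, within the range of the H4 members. Hist1h2al, annotated as a pseudogene in M21, had 31.38 TPM in replicate 2 and 10.26 in replicate 1. Hist1h2aj, likewise annotated as a pseudogene, had 1.01 TPM in replicate 2 and 4.46 in replicate 1. They were picked out because their counts lay above the limit of 3 that a count of 0 allows, and no cause was tested.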

How the results depend on the processing

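No paired analysis was possible because there was 1 group. Taking expected counts in place of TPM, an alternative not divided by length, moved the members' share of all transcripts to 1.26%, and within the family H1 to 0.5%, H3 to 1.33%, the Hist1 cluster to 98.6%, Hist2 to 1.1% and Hist3 to 0.264%. Leaving out Hist1h2ao and Hist1h2ap, an alternative chosen after seeing the data, moved the share of all TPM to 0.32%, and within the family H1 to 2.42%, H2A to 65.4%, H2B to 5.53%, H3 to 12.9%, H4 to 13.7%, Hist1 to 90.0%, Hist2 to 8.74% and Hist3 to 1.25%. With either library alone, the share of all TPM was 3.15 to 5.43%, and shares within the family that moved by over 1.5 times without one of them were H1 at 0.319% without replicate 1 and 0.0819% without replicate 2, H2B at 0.283% without replicate 2, and Hist3 at 0.183% without replicate 1 and 0.0291% without replicate 2. The median log2 ratio of members was -0.13 with total-count scaling and -0.16 with TPM ratios, by the construction of those scalings, under which the median of all genes moved alike. Members apart with the higher level in replicate 1 then numbered 7 of 57 under each, while the share of all genes apart in that direction was 23.1% with total-count scaling and 24.2% with TPM ratios, against 14.5% with TMM. Leaving out members with under 50% unique words, or with no M21 model of the same length, left 9 members tested, with a median log2 ratio of 0.56, of which 2 (Hist3h2ba and Hist1h1c) were apart with the higher level in replicate 2 and 0 with the higher level in replicate 1. Posterior mean TPM was taken for the shares and for the counts at 1 TPM, and gave 4.14% for the share of all TPM and 53 members at 1 TPM. Size factors of DESeq2, no minimum, a minimum of 100 counts and a prior count of 5 gave a median log2 ratio of 0.22 to 0.34, with 7 or 8 members apart with the higher level in replicate 2 and 3 or 4 with the higher level in replicate 1. Depth limited Hist1h1t and Hist1h2aa to the bounds given, the split of reads limited Hist1h2ba, Hist1h2bq and Hist2h3c1, and with 2 libraries the SD itself is imprecise.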
